A study of Rattus norvegicus with 6 samples.

Results

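The heat shock proteins of the cytosol were examined here as a group of 10 genes out of the 32900 features in the expression table of the study. The genes were taken by symbol: the Hsp90 genes Hsp90aa1 and Hsp90ab1, the Hsp70 gene Hspa8, the Hsp110 genes Hspa4 and Hsph1, the Hsp40 or J-domain genes Dnaja1, Dnajb1 and Dnajc2, the small heat shock protein gene Hspb1, and Hsf1, which encodes the transcription factor of the heat shock response. All 10 had a row, and 9 of them reached a mean of 5 normalized counts over the lines and were tested. Hspb1 had no read in any line.

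Cytosolic chaperones help other proteins to fold, refold and reach their partners. J-domain proteins bring clients to Hsp70 and make it hydrolyse ATP, Hsp110 proteins release the nucleotide again, and Hsp90 takes over many kinases and receptors from Hsp70 for their last folding steps. When misfolded protein builds up in the cytosol, HSF1 is set free, forms trimers and binds heat shock elements in the promoters of these genes, whereas misfolded protein in the ER acts through a separate set of sensors and transcription factors on the chaperones of that compartment.

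People with Prader-Willi syndrome (PWS) lack the activity of an imprinted chromosome domain whose genes are read from the copy inherited from the father, while the maternal copy is silent. All lines are clones of rat INS-1(832/13) insulinoma cells, a beta cell line, and carry a human insulin transgene and a mouse Ins2 C-peptide-mCherry reporter. The 3 control lines (5-9, 2 and 16) have the PWS domain deleted on the silent maternal allele, and the 3 PWS lines (3, 19-1 and 19-4) have it deleted on both alleles. Total RNA from each line grown in 7.5 mM glucose was sequenced after rRNA depletion, with 1 library per line. Lines 2 and 16 and the PWS clones were all isolated from line 5-9, line 3 has a larger paternal deletion than the others, and lines 19-1 and 19-4 are subclones of line 19, so that the PWS lines stand for 2 clones. Since each line gave a single library, the p-values measure the spread between these libraries, and lines and cultures cannot be told apart.

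Counted reads per line lay between 26016478 and 36084261 when reads that align to several places are counted at each. Snurf, a gene of the deleted domain, had 3442 to 4205 reads in the control lines and 0 to 4 in the PWS lines. Of the 10 beta cell markers checked, none was at or under 3 reads in every line. Their summed level was 482815 to 559512 normalized counts in control and 252284 to 454208 in PWS lines, and the groups did not overlap. Nearly all of the sum came from Ins1 and Iapp, both lower in every PWS line, while the groups of the other 8 markers overlapped, and the part of this difference in the results that follow was not tested. The defining markers Sst of delta cells, Prss1 of acinar cells, Ptprc of leukocytes, and Dcn and Lum of fibroblasts had 0 reads in every line. In bulk RNA, fewer cells of a type and less RNA per cell cannot be told apart.

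Of the 7 members with a promoter in the RefSeq table used (build GRCr8), 5 held a heat shock element of 2 units, written here as GAANNTTC or TTCNNGAA, and 3 of these (Hspa8, Hsph1 and Dnaja1) held a longer form of 3 units, GAANNTTCNNGAA or its reverse complement TTCNNGAANNTTC. Each promoter ran from 250 bases before to 50 bases after the gene's start, and 15.9% of all 33469 promoters held the shorter element and 0.798% the longer one, which always contains the shorter. Hsp90ab1 and Hspa4 were matched and held neither, and Hsp90aa1, Dnajc2 and Hsf1 had no entry. The 4 promoters that follow show how the elements lie before the start. The bases are the 250 before the start, read 5′ to 3′ on the gene's strand, with the heat shock elements in capitals.

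Hspa8 (chr8:50080264-50080513, plus strand): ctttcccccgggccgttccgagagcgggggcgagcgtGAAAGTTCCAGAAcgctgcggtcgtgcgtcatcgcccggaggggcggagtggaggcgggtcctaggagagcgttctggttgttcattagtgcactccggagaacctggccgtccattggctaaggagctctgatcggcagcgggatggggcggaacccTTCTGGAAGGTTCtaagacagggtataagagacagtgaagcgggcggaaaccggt

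Hsph1 (chr12:10427118-10427367, plus strand): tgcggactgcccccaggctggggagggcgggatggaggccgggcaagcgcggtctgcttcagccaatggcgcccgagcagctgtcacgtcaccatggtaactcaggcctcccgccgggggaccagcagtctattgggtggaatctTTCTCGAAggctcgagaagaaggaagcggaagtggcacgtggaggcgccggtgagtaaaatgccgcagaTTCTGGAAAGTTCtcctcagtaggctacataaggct

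Dnajb1 (chr19:41431142-41431391, minus strand): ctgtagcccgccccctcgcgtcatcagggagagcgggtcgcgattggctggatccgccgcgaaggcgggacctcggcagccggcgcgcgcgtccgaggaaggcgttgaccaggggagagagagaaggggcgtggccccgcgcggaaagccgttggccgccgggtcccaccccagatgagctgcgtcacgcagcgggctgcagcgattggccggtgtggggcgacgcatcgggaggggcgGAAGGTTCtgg

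Hspb1 (chr12:26432302-26432551, minus strand): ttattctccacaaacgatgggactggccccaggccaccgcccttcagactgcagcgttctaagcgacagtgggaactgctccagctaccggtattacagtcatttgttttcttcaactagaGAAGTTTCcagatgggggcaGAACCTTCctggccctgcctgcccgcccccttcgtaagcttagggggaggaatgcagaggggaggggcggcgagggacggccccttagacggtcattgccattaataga

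Dnaja1 held a shorter element 181 bases before the start, and its element of 3 units began 10 bases into the transcript, and 30 bases around it are shown with the element in capitals.

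Dnaja1 (chr5:60638405-60638434, plus strand): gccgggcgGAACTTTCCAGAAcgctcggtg

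Hspa8 held 2 elements of 3 units and Hsph1 held 1 together with a shorter one. None of the 7 members with a promoter in the table held the ER stress response element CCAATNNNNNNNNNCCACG on either strand, which occurred in 0.0657% of all promoters. Of the 9 ER chaperones with a promoter in the table, 4 (Hspa5, Hsp90b1, Creld2 and Dnajc3) held it, and 0 of the 9 held a heat shock element of either length. The promoter of Hspa5, the ER counterpart of Hspa8, is shown for comparison, with the ER stress response element in capitals.

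Hspa5 (chr3:38452766-38453015, plus strand): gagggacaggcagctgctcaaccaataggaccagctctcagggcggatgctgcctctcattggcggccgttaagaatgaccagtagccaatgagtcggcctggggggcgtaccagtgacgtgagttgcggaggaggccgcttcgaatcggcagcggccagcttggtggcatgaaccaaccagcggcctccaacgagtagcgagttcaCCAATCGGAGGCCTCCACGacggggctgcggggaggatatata

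A match in these letters is a description of the sequence and does not show that a factor binds there.

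At a threshold of 0.05 on the adjusted p-value, none of the 9 tested members passed in limma on log2(normalized count + 1), where 40 of 15579 genes (0.257%) did, and none passed in edgeR (0.205% of genes) or DESeq2 (1.46%). At an unadjusted p-value under 0.05 in limma there were 2 members, Dnaja1 and Dnajb1, both lower in the PWS lines, where 5.35% of the tested genes were under it and lower and 11.3% were under it in either direction. Neither held throughout. Without lines 2 and 19-4 together neither was under it. Dnaja1 was not under it with lines 19-1 and 19-4 averaged, with chromosome medians removed or with any single line but 16 left out, and Dnajb1 was not under it with the replicate number as a block or without line 16 or line 19-1. The differences between the group means ran from 0.847-fold for Dnaja1 to 1.08-fold for Hsph1, with 7 members lower and 2 higher in PWS lines. Their median log2 difference was -0.04, beside -0.0028 for all genes tested. It was -0.099 without line 19-4 and -0.015 without line 19-1. For all 9, the 95% interval of the log2 difference lay within 0.5 of 0, a limit set after the values were seen, which held for 59.1% of the tested genes. Between 573 and 74354 reads per line stood behind each of these values, but only 0.0284% of those of Hsp90aa1 were unique to it. With RSEM the log2 difference of Hsp90aa1 was -0.59, outside the limit of 0.5. Normalized counts were not divided by transcript length, so the levels of different genes are not set against each other.

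**Figure D1:**
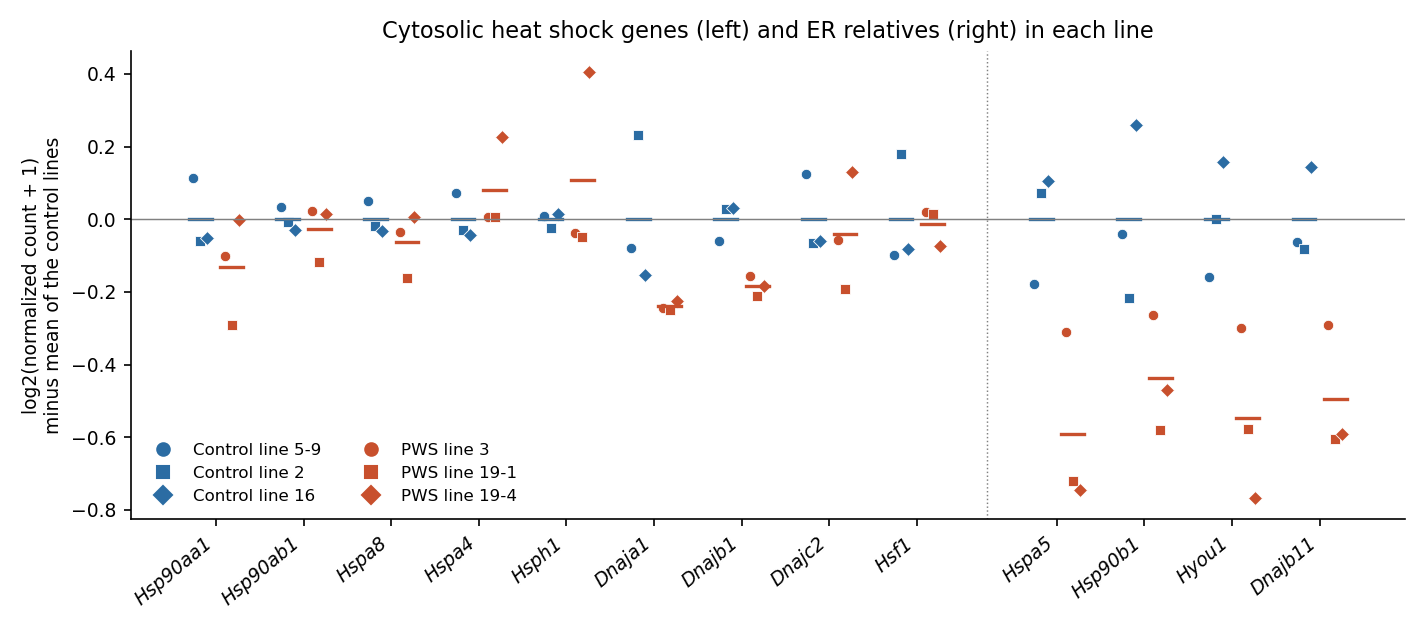
Each point is 1 line, plotted as log2(normalized count + 1) minus the mean of the 3 control lines, for the 9 tested heat shock genes on the left and 4 ER relatives on the right; short bars mark group means. Among the heat shock genes the groups do not overlap for Dnaja1 and Dnajb1 alone, while line 2 stands high for Dnaja1 and line 19-4 for Hsph1, and for all 4 ER relatives every PWS line lies under every control line.

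The cytosolic Hsp90 proteins are the most general hub of the network, with Hsp90aa1 encoding the stress-inducible and Hsp90ab1 the constitutive isoform. Hsp90ab1 stood at 68559, 66637 and 65627 normalized counts in lines 5-9, 2 and 16 (control) and at 67971, 61716 and 67601 in lines 3, 19-1 and 19-4 (PWS). The groups overlapped, and only line 19-1 lay below the control lines. The log2 difference of Hsp90ab1 was -0.03 (95% interval -0.23 to 0.18, limma adjusted p = 0.941), and without line 19-1 it was 0.018.

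Hsp90aa1 stood at 46731, 41397 and 41650 normalized counts in lines 5-9, 2 and 16 (control) and at 40284, 35269 and 43146 in lines 3, 19-1 and 19-4 (PWS). Line 5-9 was highest and line 19-1 lowest, and line 19-4 lay inside the control range. The log2 difference was -0.13 (95% interval -0.37 to 0.10, limma adjusted p = 0.670), and it was -0.20 without line 19-4, -0.075 without line 5-9 and -0.051 without line 19-1. The level of Hsp90aa1 itself is uncertain, since 0.0284% of its reads were unique to it, against 97.5% for Hsp90ab1. A feature named LOC103692716, looked at after the values were seen, ran parallel to it at 1.21 to 1.23 times the count of Hsp90aa1 in every line, and 2.92% of its own reads were unique. RSEM, which shares such reads out, gave Hsp90aa1 between 1.08% and 7.75% of the sum of both features, and its log2 difference was then -0.59 (adjusted p = 0.825). With shared reads dropped, Hsp90aa1 kept a mean of 11.8 normalized counts and the difference turned to 0.24 (adjusted p = 0.845). The value under the main counting therefore belongs to both features together.

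Hspa8 encodes Hsc70, the constitutive Hsp70 that folds new proteins and takes part in clathrin uncoating. It stood at 33370, 31816 and 31483 normalized counts in lines 5-9, 2 and 16 (control) and at 31415, 28799 and 32340 in lines 3, 19-1 and 19-4 (PWS). The groups overlapped, with line 19-1 lowest. The log2 difference was -0.06 (95% interval -0.25 to 0.12, limma adjusted p = 0.810), and it was -0.099 without line 19-4, -0.039 without line 5-9 and -0.015 without line 19-1. RSEM gave 0.0021.

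Hspa4 and Hsph1 encode Hsp110 proteins, the nucleotide exchange factors of Hsp70 that also help it to take aggregates apart. Hspa4 stood at 13080, 12179 and 12066 normalized counts in lines 5-9, 2 and 16 (control) and at 12475, 12492 and 14549 in lines 3, 19-1 and 19-4 (PWS). All PWS lines but 19-4 lay within the control range. The log2 difference was 0.08 (95% interval -0.11 to 0.27, limma adjusted p = 0.763), and it was 0.0058 without line 19-4. Hsph1 stood at 7340, 7180 and 7375 normalized counts in lines 5-9, 2 and 16 (control) and at 7114, 7057 and 9664 in lines 3, 19-1 and 19-4 (PWS). Its control lines were the closest of any member, with a coefficient of variation of 1.42%, whereas the PWS lines had one of 18.7%. The log2 difference of Hsph1 was 0.11 (95% interval -0.17 to 0.38, limma adjusted p = 0.782), and it turned to -0.043 without line 19-4, which decided its sign.

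Dnaja1 encodes a farnesylated J-domain partner of Hsc70. It stood at 10256, 12711 and 9740 normalized counts in lines 5-9, 2 and 16 (control) and at 9146, 9100 and 9260 in lines 3, 19-1 and 19-4 (PWS). The PWS lines lay within a log2 range of 0.03 and all under the control lines, of which line 2 was highest. The log2 difference was -0.24 (95% interval -0.47 to -0.01, limma adjusted p = 0.431), or 0.847-fold. Without line 2 the groups still did not overlap, but the log2 difference was -0.12 (limma adjusted p = 0.56).

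Dnajb1 encodes the main stress-inducible Hsp40, which also holds HSF1 in check together with Hsp70. It stood at 1680, 1784 and 1787 normalized counts in lines 5-9, 2 and 16 (control) and at 1569, 1510 and 1541 in lines 3, 19-1 and 19-4 (PWS). Every PWS line lay under every control line. The log2 difference was -0.18 (95% interval -0.33 to -0.04, limma adjusted p = 0.364), or 0.880-fold, and the adjusted p of Dnajb1 was the smallest among the members. With a line left out it ranged from -0.21 to -0.17. Dnaja1 and Dnajb1 were the members whose groups did not overlap, 2 of 9, where 17.4% of the tested genes had groups that did not overlap and 9.01% had them with PWS lines lower.

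Dnajc2 encodes the J-domain protein of the ribosome-associated complex, which works with the Hsp70 relative Hspa14 on growing chains. It stood at 1944, 1704 and 1710 normalized counts in lines 5-9, 2 and 16 (control) and at 1714, 1559 and 1951 in lines 3, 19-1 and 19-4 (PWS). Lines 5-9 and 19-4 were the high ones, 1 in each group. The log2 difference of Dnajc2 was -0.04 (95% interval -0.27 to 0.19, limma adjusted p = 0.917), and it was 0.023 without line 5-9, 0.037 without line 19-1 and -0.12 without line 19-4.

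Hsf1 stood at 633, 768 and 641 normalized counts in lines 5-9, 2 and 16 (control) and at 688, 685 and 645 in lines 3, 19-1 and 19-4 (PWS). All PWS lines lay inside the control range, whose upper end was line 2. The log2 difference of Hsf1 was -0.01 (95% interval -0.24 to 0.21, limma adjusted p = 0.976), and it was 0.078 without line 2 and 0.018 without line 19-4. The level of this mRNA does not measure the activity of the factor, which is set by its release and modification.

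Hspb1, the ATP-independent holdase Hsp27, had 0 reads in every line under each of the 3 ways of counting. Since 0 reads can stand for as many as 3, the upper limit was 2.73 to 3.59 normalized counts by line, for counting error alone. Of the 9 other small heat shock genes listed, Cryaa, Hspb2, Hspb3, Hspb7 and Hspb8 also had no read, Cryab had no more than 1.20 and Hspb9 no more than 5.70 normalized counts in any line. Those above the minimum were Hspb6, with 101 to 157 normalized counts, and Hspb11, a ciliary transport protein by function, with 378 to 469. Neither passed the test, with log2 differences of 0.03 for Hspb6 and -0.19 for Hspb11.

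Across lines, 7 of the 9 members were lowest in PWS line 19-1. The share of all tested genes that were lowest in line 19-1 was not counted. This line also had the fewest counted reads, 26016478, against 31986863 or more in the others. Members were highest in line 5-9 for 3 genes, in line 19-4 for 3, in line 2 for 2 and in line 16 for 1. The median member, as a log2 deviation from the control mean, stood at 0.03, -0.02 and -0.04 in control lines 5-9, 2 and 16, and at -0.04, -0.16 and 0.0057 in PWS lines 3, 19-1 and 19-4. For the median member, lines 3 and 19-4 thus lay inside the control range and line 19-1, the sister subclone of 19-4, outside it.

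A further difference between lines went along with chromosomes. After the values had been seen, the 80.2% of tested genes whose symbol has a chromosome in RefSeq GRCr8 were grouped by it, and the median gene of each of 21 chromosomes was taken in each line as a log2 deviation from the median of the 6 lines. In control line 2 the median gene of the chromosome that carries Dnaja1 (836 genes) stood at 0.32, and in PWS line 19-4 that of the chromosome that carries Hsph1 (425 genes) stood at 0.26. The other 124 of the 126 medians lay between -0.063 and 0.039. Dnaja1 itself stood at 0.42 in line 2, and Hsph1 at 0.41 in line 19-4.

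**Figure D2:**
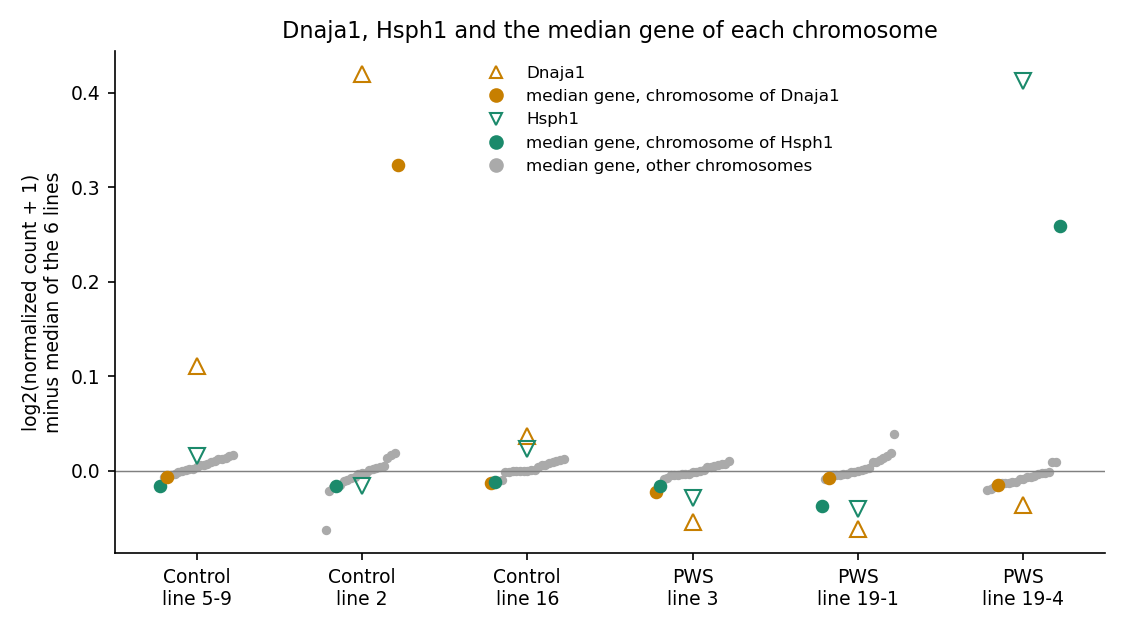
For each line, dots give the median gene of each chromosome and open triangles Dnaja1 and Hsph1, all as log2(normalized count + 1) minus the median of the 6 lines. The chromosome of Dnaja1 in line 2 (0.32) and that of Hsph1 in line 19-4 (0.26) stand apart from all other medians, and Dnaja1 and Hsph1 stand high in those same lines.

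Of the members and other cytosolic chaperone genes tested, 9 share the chromosome of Dnaja1, and line 2 was the highest of the 6 lines for 7 of them, against 11 of the 77 genes elsewhere. The 7 were Dnaja1, Ttc4, Bag1, Dnajb5, Dnajc8, Hspb11 and Btf3l4. On the chromosome of Hsph1 there were 2 such genes, Hsph1 and Cct6a, and line 19-4 was highest for both, against 22 of the other 84. When each gene was set relative to the median of its chromosome in each line, the log2 difference between PWS and control lines became -0.12 for Dnaja1 (95% interval -0.26 to 0.01, limma adjusted p = 0.453) and 0.02 for Hsph1 (95% interval -0.13 to 0.18, limma adjusted p = 0.927). Dnajb1, which lies on neither chromosome, stayed at -0.17 (95% interval -0.32 to -0.03, limma adjusted p = 0.341), and its groups still did not overlap. The groups of Dnaja1 did not overlap on this scale either.

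The profile of each member over the 6 lines, as log2 values centred on their mean, was compared with those of 85 other cytosolic chaperone genes by Euclidean distance, as a description over 6 points. For Hsp90ab1 the nearest gene was Hspa8, at 0.062, and for Hspa8 it was Stip1, the adaptor that hands clients from Hsp70 to Hsp90, at 0.060, where the median distances to all 85 were 0.217 and 0.222. A profile with no change between lines would lie at 0.124 from Hsp90ab1 and 0.159 from Hspa8. Genes that vary little thus lie close to each other whatever their pattern. Genes outside the chaperone lists were not compared, and shared regulation was not tested. Hsp90aa1 lay nearest to Tcp1 at 0.0995 and Dnajc2 to Cct4 at 0.0798, both subunits of the chaperonin TRiC. Dnajb1 lay nearest to Stub1, the ubiquitin ligase CHIP that works with Hsp70, at 0.0748. Dnaja1 was nearest to Bag1 at 0.118 and Hsph1 to Cct6a at 0.185, each on its own chromosome. For Hspa4 the nearest was Bag5 at 0.102, whose reads were almost all shared (0.016% unique), and for Hsf1 it was Hspbp1 at 0.136.

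No gene of the rest of the cytosolic network passed the threshold either. Of 89 other genes listed by role (cytosolic chaperones, cochaperones and the HSF list), 77 were tested and 0 passed in limma, edgeR or DESeq2. At an unadjusted p-value under 0.05 in limma, 3 were lower and 3 higher in PWS lines, and the groups did not overlap for 7 lower and 3 higher ones (background 9.01% and 8.43%). Their median log2 difference was -0.02, with 71 of 77 within 0.25 of 0, where 75.6% of all tested genes were.

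**Figure D3:**
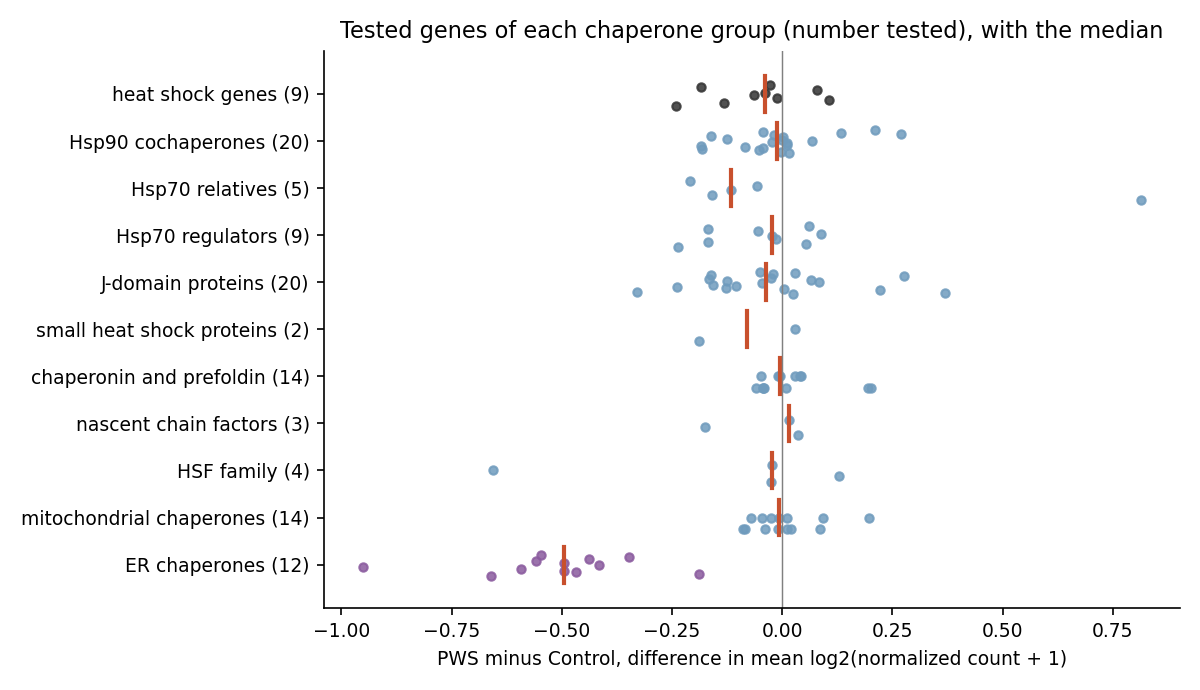
Each point is a tested gene, placed by its difference between PWS and control lines in mean log2(normalized count + 1), in rows by role with the number tested; vertical bars are medians. The medians of the cytosolic and mitochondrial groups lie between -0.12 and 0.02, while that of the ER chaperones lies at -0.50 and all 12 of its genes lie below 0.

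Hsp90 cochaperones ranged from Ttc4 (log2 difference -0.18) to Fnip2 (0.27), with a median of -0.01 over 20 genes. Regulators of Hsp70 ranged from Bag1 (-0.24) to Bag3 (0.09), with a median of -0.02 over 9 genes. Stub1 was lower in every PWS line, with a log2 difference of -0.17 (limma adjusted p = 0.385). Among 20 J-domain genes the ends were Dnajb5 (-0.33) and Dnajb14 (0.37), the latter a membrane-anchored protein of the ER that faces the cytosol, and the median was -0.04. The 14 tested subunits of TRiC and prefoldin, which fold actin and tubulin, ran from Tcp1 (-0.06) to Pfdn2 (0.20), with a median of -0.0060. The factors that meet nascent chains at the ribosome ran from Btf3l4 (-0.18) to Btf3 (0.04). Most of these ends moved with 1 line. Without line 2 the log2 differences were -0.11 for Bag1, -0.040 for Ttc4, -0.15 for Dnajb5, 0.0046 for Pfdn2, 0.16 for Fnip2 and 0.41 for Bag3. Without line 16 they were -0.31 for Ttc4, 0.42 for Fnip2, 0.31 for Pfdn2 and -0.16 for Bag3. Without line 19-1 that of Tcp1 was 0.027. The HSF list also held genes named for binding an HSF, which are not heat shock factors themselves. Its ends were Hsf2bp (-0.66), a gene of that kind, at 14.3 to 42.2 normalized counts, and Hsf4 (0.13), at 44.1 to 68.2. Hsf2bp stood at -0.33 without line 19-1, and Hsf4 at -0.015 without line 2.

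The largest difference among the 77 genes in either direction was that of Hspa12a, a distant relative of Hsp70. It stood at 378, 341 and 236 normalized counts in lines 5-9, 2 and 16 (control) and at 488, 414 and 821 in lines 3, 19-1 and 19-4 (PWS). Every PWS line lay above every control line, with line 19-4 highest. The log2 fold change of Hspa12a was 0.81 (95% interval 0.21 to 1.42, limma adjusted p = 0.338, DESeq2 adjusted p = 0.0503), and it was 0.52 without line 19-4.

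Genes that heat shock or other proteotoxic stress is known to induce were looked at apart from their roles. Of 22 listed, 18 were tested, 0 passed in limma, edgeR or DESeq2, and the median log2 difference was -0.06. Hspa1b, the classic inducible Hsp70, had 15.3 to 23.7 normalized counts in every line, none of them from reads unique to it, and Hspa1a had no row in the table. Bag3, another sensitive target of HSF1, stood at 92.1, 161 and 72.9 normalized counts in lines 5-9, 2 and 16 (control) and at 102, 140 and 90.9 in lines 3, 19-1 and 19-4 (PWS), so that the groups overlapped. Its log2 difference was 0.09 (95% interval -0.59 to 0.77, limma adjusted p = 0.941), an interval that spans larger changes than those of any member. The Hsp90 cochaperones of this list were close to 0, with log2 differences of -0.02 for Chordc1, 0.015 for Ahsa1, -0.08 for Stip1 and -0.05 for Fkbp4. With a line left out, Stip1 ranged from -0.12 (without line 16) to -0.037 (without line 19-1) and Fkbp4 from -0.11 to -0.0032 without the same lines. Chordc1 ranged from -0.087 to 0.067 and Ahsa1 from -0.027 to 0.062, so neither kept its sign. Ubb, a ubiquitin gene, stood at -0.19 (-0.076 without line 19-4) and Hspa4l at -0.06 (-0.082 to -0.036 with a line left out). Dnajb4 was the gene of the list with groups that did not overlap and PWS lines higher. It stood at 694, 586 and 666 normalized counts in lines 5-9, 2 and 16 (control) and at 765, 812 and 775 in lines 3, 19-1 and 19-4 (PWS), with a log2 difference of 0.28 (95% interval 0.07 to 0.48, limma adjusted p = 0.338).

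Chaperones of the mitochondria, a compartment with its own Hsp70 and Hsp60, had no gene past the threshold. All 14 were tested, 0 passed in limma, edgeR or DESeq2, 0 were under an unadjusted p-value of 0.05 in limma, and the median log2 difference was -0.0079. They ranged from Dnajc15 (-0.09) to Grpel2 (0.20), which was higher in every PWS line. Grpel2 stood at 0.080 without line 19-4, and Dnajc15 at -0.029 without line 19-1 and -0.14 without line 16. Hspd1 and Hspe1, the Hsp60 and Hsp10 of the matrix, which heat shock also induces, stood at 0.02 and -0.07. With a line left out Hspd1 ranged from -0.077 to 0.099 and Hspe1 from -0.13 to 0.010, so neither kept its sign.

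The comparison with ER chaperones asks whether the chaperones of the cytosol moved with their relatives in the ER. The 12 ER chaperones were chosen by the study on these lines and are no independent evidence of a direction. All 12 had lower means in PWS lines, with a median log2 difference of -0.50 and a range from -0.95 (Sdf2l1) to -0.19 (Pdia3), the latter -0.074 without line 16. Dnajc2, which the study lists among the ER chaperones lowered in its RNA-seq, was counted here among the genes of the cytosol. Its log2 difference here was -0.04 with overlapping groups (limma adjusted p = 0.917, DESeq2 adjusted p = 0.989). Dnajc3, which the study names in its PCR and protein data, stood at -0.47. Of the 12 ER chaperones, none passed in limma or edgeR and 8 passed in DESeq2 (background 1.46%). In limma, 11 of the 12 were under an unadjusted p-value of 0.05 and lower (background 5.35%). The groups did not overlap for 10 of the 12, with PWS lines lower (background 9.01%).

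**Figure D4:**
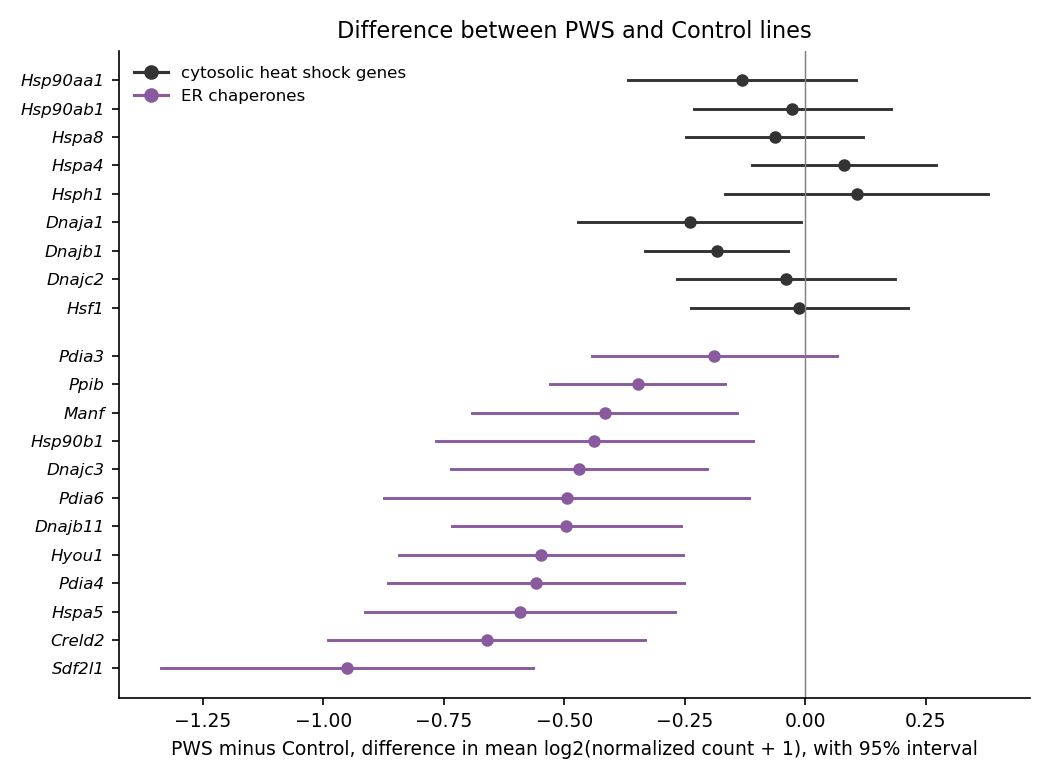
Points give the difference between PWS and control lines in mean log2(normalized count + 1) and bars its 95% interval, for the 9 tested heat shock genes (black) and 12 ER chaperones (purple). Intervals of 7 heat shock genes include 0 and those of Dnaja1 and Dnajb1 end just below it, while 11 of the 12 ER chaperones have intervals below 0.

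Each member with a relative in the ER was set against it as a log2 ratio within a line, which cancels whatever scales a whole library. Hspa8 against Hspa5 (BiP, the Hsp70 of the ER) gave -0.83, -1.15 and -1.20 in control lines 5-9, 2 and 16 and -0.79, -0.50 and -0.31 in PWS lines 3, 19-1 and 19-4. The groups did not overlap, and the mean log2 ratio was 0.53 higher in PWS lines, or 1.44-fold (control -1.06 ± 0.20, PWS -0.53 ± 0.24, SD, n = 3 lines each, exact permutation p = 0.1). Hspa5 itself stood at 59385, 70665 and 72342 normalized counts in lines 5-9, 2 and 16 (control) and at 54202, 40807 and 40088 in lines 3, 19-1 and 19-4 (PWS), a log2 difference of -0.59 (95% interval -0.91 to -0.27, limma adjusted p = 0.265).

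Hsp90ab1 against Hsp90b1 (Grp94, the Hsp90 of the ER) was 0.41 higher in PWS lines on the log2 scale, and Hsp90aa1 against Hsp90b1 was 0.31 higher. Without line 16, in which Hsp90b1 was highest, these were 0.27 and 0.15. The ratio of Hsp90aa1 turned to -0.16 with RSEM, which splits the reads of Hsp90aa1. Against Hyou1, the Hsp110 of the ER, the log2 ratio was 0.63 higher in PWS lines for Hspa4 and 0.65 higher for Hsph1, and without line 19-4 these were 0.44 and 0.40. Against Dnajb11, a J-domain partner of BiP, it was 0.31 higher for Dnajb1 and 0.26 higher for Dnaja1. The pair of Dnaja1 was the one whose groups overlapped (exact permutation p = 0.2, adjusted p = 0.2 over 7 pairs), and its difference was 0.41 without line 2 and 0.11 without line 16.

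**Figure D5:**
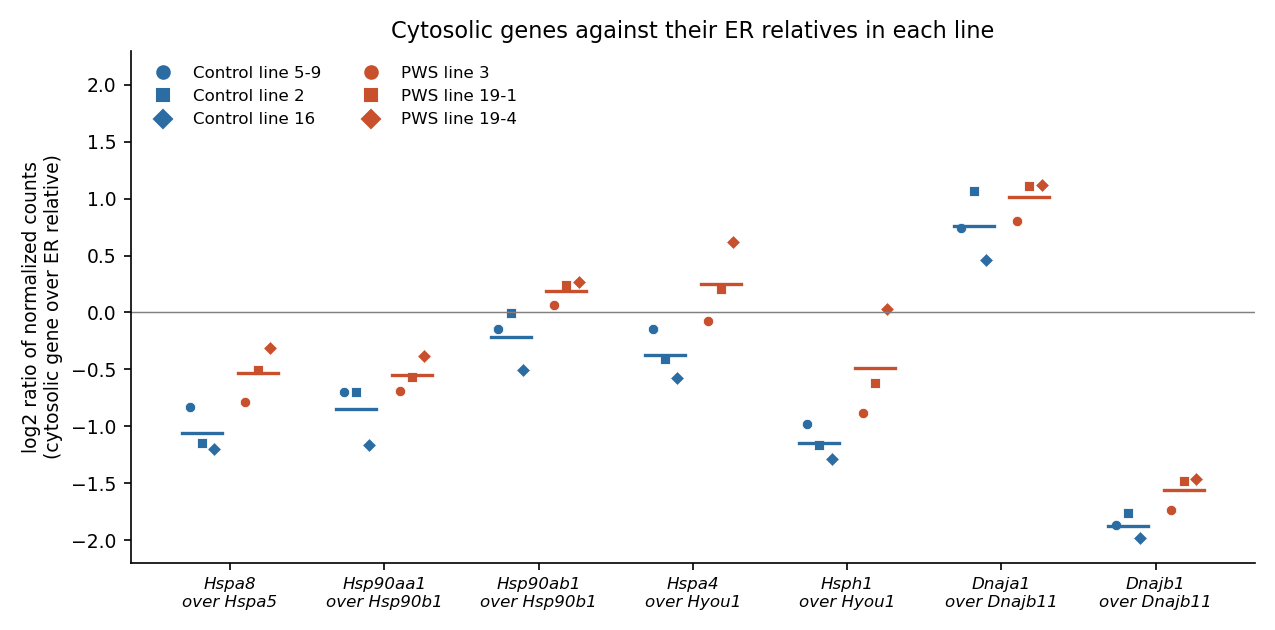
Each point is 1 line, as the log2 ratio of the normalized counts of a cytosolic gene to those of its ER relative, and short bars are group means. In 6 of the 7 pairs every PWS line lies above every control line, and the pair of Dnaja1 and Dnajb11 is the exception.

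In 6 of the 7 pairs, then, the groups did not overlap, with PWS lines higher. The 4 ER relatives were chosen by the study on these lines and each separated the groups by itself, so the pairs are a description. For these 6 the exact permutation p was 0.1, the smallest that 3 lines against 3 allow, and 0.117 after adjustment over the 7 pairs, so that the design could not reach 0.05. With lines 19-1 and 19-4 averaged it was 0.2, the smallest for 3 against 2. With chromosome medians removed the pair of Dnaja1 did not overlap and that of Hsp90aa1 did, and with RSEM 5 pairs had groups without overlap. The pairs share Hsp90b1, Hyou1 and Dnajb11 among them and are not independent. With the log2 differences of the members between -0.24 and 0.11 and those of the 4 ER relatives between -0.59 (Hspa5) and -0.44 (Hsp90b1), the ratios differed mainly through the ER genes.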

How the data were processed

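The data are total RNA-seq libraries of 3 control and 3 PWS INS-1 lines, 1 for each line. Columns were mapped to lines by group and number. Per the labels and the methods of the study, the authors trimmed reads with cutadapt, aligned them with STAR 2.7.0e to an Ensembl rat genome that includes the transgenes, and obtained counts from HTSeq 0.11.2 or RSEM 1.3.1. The deposited values are a signal: counts divided by DESeq2 size factors, called normalized counts here. The main values count a read at every place it aligns (nonunique all). The alternatives drop such reads (nonunique none) or share them out (RSEM). Since shared reads enter at each place, near-identical copies raise each other's values. Columns of the authors' own comparison (log2 fold changes, test statistics as scores, and p-values) were deposited too and were not used.

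For HTSeq, 100% of values above 0 equalled a whole number of reads within 0.01, and the reads recovered this way gave the depths (17530149 to 23022637 per line under nonunique none) and the edgeR and DESeq2 tests.

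Groups were compared with limma 3.58.1 under R 4.3.3, using lmFit and then eBayes with its trend option. Values were log2(normalized count + 1), which understates fold changes of low genes, and 15579 genes with a mean of at least 5 were tested, with Benjamini-Hochberg adjustment over all of them and a threshold of 0.05, two-sided. Alternatives were edgeR 4.0.16 (quasi-likelihood), DESeq2 1.42.0, TMM scaling, pseudocounts of 0.5 and 5, no filter or a mean of at least 50, both other countings, a threshold of 0.1, leaving out each line, lines 19-1 and 19-4 averaged, and the replicate number as a block. The alternatives with chromosome medians removed, and without lines 2 and 19-4 together, were chosen after seeing the data. The fits were tested on simulated data. Pairs were compared by a two-sided exact permutation test over lines. The members and gene lists were chosen with earlier results of these data known. Named were all members, their ER relatives, the ends of each list, the heat-inducible genes and each member's nearest profile. Other genes named were chosen after their values were seen. A gene that this rule picks is not reported here. Promoters and chromosomes came from RefSeq tables of GRCr8, matched by symbol (7 of 10 members for promoters). Transcript lengths and protein sequences were not used here.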

Additional observations from a re-analysis of the deposited data

How the results depend on the processing

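No member, other cytosolic chaperone or mitochondrial chaperone passed the threshold of 0.05 under any alternative or with any line left out, or one of 0.1 in limma (in DESeq2 the log2 fold change of Hspa12a had an adjusted p of 0.0503), and the median member stayed between -0.11 and -0.015 on the log2 scale. The count of ER chaperones past the threshold was 0 in limma, 8 with DESeq2 and 0 to 2 with a line left out, the 2 arising without line 3. The count over all genes was 40 in limma, 9 at a mean of at least 50, 228 with DESeq2, 16 with nonunique none, 12 with RSEM, and 33 to 55 with a line left out. The median difference of the pairs lay between 0.27 and 0.48 with a line left out and was 0.53 with nonunique none and 0.37 without lines 2 and 19-4. The replicate numbers did not pair the lines: deviations of lines with the same number correlated at 0.0035, 0.047 and 0.0051, and not every line correlated best with its own number. With the replicate block 36 genes passed, 0 of them members; it changed no other call at the adjusted threshold, but Dnajb1 was no longer under an unadjusted p-value of 0.05. The cause of these shifts in count was not tested.

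Some directions turned, none of them for a gene past the threshold. Hsp90aa1 turned to 0.24 with nonunique none, and its pair with Hsp90b1 to -0.16 with RSEM. RSEM also turned Hspa8 to 0.0021, Hsf1 to 0.0045 and Hspe1 to 0.0043. Without lines 2 and 19-4 together the values were -0.0091 for Hspa4, -0.054 for Hsph1, 0.11 for Hsf1, -0.074 for Pfdn2, -0.053 for Btf3, -0.035 for Hsf4, -0.0055 for Ahsa1, -0.12 for Hspd1. With a line left out, the log2 differences ranged over -0.051 to 0.018 for Hsp90ab1, -0.043 to 0.18 for Hsph1, -0.12 to 0.037 for Dnajc2, -0.062 to 0.078 for Hsf1, -0.16 to 0.41 for Bag3, -0.097 to 0.22 for Hspb6, -0.13 to 0.027 for Tcp1, -0.028 to 0.068 for Btf3, -0.015 to 0.26 for Hsf4, -0.087 to 0.067 for Chordc1, -0.027 to 0.062 for Ahsa1, -0.077 to 0.099 for Hspd1, -0.13 to 0.010 for Hspe1. Dnaja1 and Dnajb1 kept their sign under all 19 alternatives, at -0.32 to -0.12 and -0.21 to -0.17, with adjusted p-values of at least 0.336 and 0.341. Shared reads limit Hsp90aa1, Hspa1b and Bag5, and having 3 lines a group limits the precision of all.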
